A study of Mus musculus with 24 samples.

Results

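The replication-dependent histone genes of the mouse were followed in female embryonic stem cells with and without the gene of G9a, an enzyme that methylates histone H3 at lysine 9. A gene of the gene table was taken as a member when its symbol began with Hist1h, Hist2h, Hist3h or Hist4h, which gave 68 of 24016 genes. By symbol, 6 of these are genes of the linker histone H1 and 62 of core histones (18 H2A, 19 H2B, 12 H3 and 13 H4). Among the H2B symbols, Hist3h2bb-ps carries the -ps suffix of a pseudogene. The Hist1 cluster on chromosome 13 holds 54 of the 68 members, and the Hist2 cluster on chromosome 3 holds 10. The Hist3 cluster on chromosome 11 holds 3, and Hist4h4 stands alone on chromosome 6.

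Knockout (KO) cells lack G9a and were made from the parental line 16.7 Tsix +/TST, which serves as WT. Both lines are female hybrids of a mus and a cas genome and both carry the TST change on a Tsix allele. How many clones stand behind the KO line is not given in the sources used here. The 4 groups were KO at day 10, WT at day 10, KO at day 0 and WT at day 0. Day 0 cells were undifferentiated, and day 10 cells had been without LIF, the cytokine that holds such cells in the stem cell state, for 4 days floating and 6 more days on gelatin. Total RNA freed of ribosomal RNA was sequenced from 3 libraries per group, and 1 ChIP sample per group gives the positions of H3K9ac, a histone mark found at active promoters. No library was treated with a drug. Nothing but a donor number per library says that replicates came from separate cultures, so p-values measure the spread between these libraries, which may be technical.

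Replication-dependent histone genes supply the histones that package newly made DNA, and their mRNAs accumulate in S phase. These mRNAs end in a stem-loop and mostly carry no poly(A) tail, so a total RNA library without poly(A) selection holds them. Core histones H2A, H2B, H3 and H4 form the particle around which DNA winds, whereas H1 binds the DNA between particles. A few members of the Hist1 cluster are known from the male germ line: Hist1h1t encodes the testis linker histone H1t, and Hist1h2aa and Hist1h2ba encode the testis variants TH2A and TH2B.

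Promoters of 6 members that the results below turn on are shown first. Each is the 150 bases before the start of the gene in RefSeq (assembly GRCm38.p6), written 5′ to 3′ on the strand of the gene. Capitals mark 4 motifs sought on both strands: the TATA box TATAAA, the CCAAT box CCAAT, the octamer ATTTGCAT known from H2B promoters and the H1 box AAACACA. Where the motif lies on the other strand its reverse complement is in capitals, and no marked motif overlaps another.
Hist1h1c: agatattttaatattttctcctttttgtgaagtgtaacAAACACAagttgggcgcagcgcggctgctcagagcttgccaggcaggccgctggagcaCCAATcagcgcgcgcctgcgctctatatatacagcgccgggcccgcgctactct
Hist1h1t: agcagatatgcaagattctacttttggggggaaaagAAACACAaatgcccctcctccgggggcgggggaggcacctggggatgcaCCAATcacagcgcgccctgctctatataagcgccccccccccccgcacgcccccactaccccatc
Hist1h2ab: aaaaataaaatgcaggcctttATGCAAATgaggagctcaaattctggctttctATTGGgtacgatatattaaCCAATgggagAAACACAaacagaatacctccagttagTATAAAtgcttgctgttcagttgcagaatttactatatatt
Hist1h2aa: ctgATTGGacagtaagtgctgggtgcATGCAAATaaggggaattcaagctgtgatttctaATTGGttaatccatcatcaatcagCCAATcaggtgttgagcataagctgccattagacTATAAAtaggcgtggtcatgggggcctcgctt
Hist1h2ba: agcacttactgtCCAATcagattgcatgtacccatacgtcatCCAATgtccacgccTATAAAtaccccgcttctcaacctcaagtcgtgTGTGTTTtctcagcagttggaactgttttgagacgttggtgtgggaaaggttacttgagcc
Hist4h4: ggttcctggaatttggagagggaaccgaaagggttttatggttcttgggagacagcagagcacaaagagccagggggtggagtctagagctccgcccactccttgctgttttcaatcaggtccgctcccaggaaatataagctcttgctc
These windows lie at chr13:23738657-23738806 (Hist1h1c, plus strand), chr13:23695661-23695810 (Hist1h1t, plus), chr13:23750938-23751087 (Hist1h2ab, plus), chr13:23934287-23934436 (Hist1h2aa, plus), chr13:23934157-23934306 (Hist1h2ba, minus) and chr6:136804432-136804581 (Hist4h4, minus). Hist1h1c and Hist1h1t, both linker genes, carried an H1 box beginning 112 and 114 bases before the start and a CCAAT box beginning 54 and 65 bases before it. Hist1h2aa and Hist1h2ba are neighbours that point away from each other, and their windows share 20 bases. The Hist1h2aa window held the octamer on the other strand, 3 CCAAT boxes and a TATA box beginning 32 bases before the start. Hist4h4 held none of the 4 motifs in its window.

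The motifs divided the members by histone type. Over 300-base windows (250 before and 50 after the start), 62 of the 68 members had a promoter in the RefSeq table, which holds 32851 promoters. A CCAAT box was found in 53 of 62 members (85.5%), against 37.4% of all promoters. It was in each of the 6 H1, 18 H2A, 16 H2B and 10 H3 promoters, and in 3 of the 12 H4 promoters (25.0%). The octamer was in 7 H2A and 6 H2B promoters and in no matched H1, H3 or H4 promoter, giving 21.0% of members against 1.74% of all promoters. The H1 box was in 5 of 6 H1 promoters, all but Hist1h1a, and in 14.5% of members against 7.18% of all promoters. A TATA box was in 35 members (56.5%) against 13.6% of all promoters. These are matches of letters, and many windows of neighbouring H2A and H2B genes overlap, so they are not independent.

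The gene table gives scaled reads, that is reads which the authors brought to the same total in each library. Libraries held 2081129 to 30527844 reads. The 3 deepest (KO day 0 replicates 2 and 3 and WT day 0 replicate 3) had 0.1145 to 0.1294% of reads on the ribosomal gene Rn45s, against 14.76 to 25.13% in the 9 shallower libraries, and each of the 6 day 10 libraries is of the shallow kind. Reads on olfactory and vomeronasal receptor genes, which these cells should not express, were highest in KO day 0 replicate 1 (1072 CPM, relative to the reads outside Rn45s) and WT day 10 replicate 3 (1093 CPM). The deleted gene, Ehmt2, averaged 628.9 ± 129.3 scaled reads in KO and 1125 ± 353.2 in WT at day 10, and 457.9 ± 92.1 in KO and 1155 ± 199.4 in WT at day 0 (SD, n = 3 each; limma adjusted p = 0.323 and 0.993), counted over the whole gene body.

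Of the 68 members, 63 exceeded 1 scaled read in at least 3 libraries and were tested, and 61 of these are distinct by position and values. The 5 others (Hist1h4m, Hist1h2ao, Hist1h2ap, Hist2h2aa1 and Hist2h2aa2) had 0 to 6.18 scaled reads in every library. Pairs of near-identical genes such as Hist1h2bq and Hist1h2br, or Hist2h3c1 and Hist2h3c2, carry the same values in the table, and how reads with several positions were placed is not given in the sources used here, so values of single members with close copies are uncertain.

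The 68 members together took 39930 ± 554 scaled reads in KO and 32020 ± 11670 in WT at day 10, and 20100 ± 3801 in KO and 20830 ± 5125 in WT at day 0 (SD, n = 3 each). The KO libraries of day 10 held 40300, 39290 and 40190 scaled reads, the WT libraries of day 10 held 39630, 37840 and 18580, the KO libraries of day 0 held 24440, 17350 and 18520, and the WT libraries of day 0 held 26550, 16660 and 19270. Thus 5 of the 6 day 10 libraries lay above every day 0 library, and WT day 10 replicate 3 lay among those of day 0. That library had the lowest value of the 6 day 10 libraries for 50 of the 63 members. In bulk RNA, fewer dividing cells and less histone mRNA per cell cannot be told apart.

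**Figure D1:**
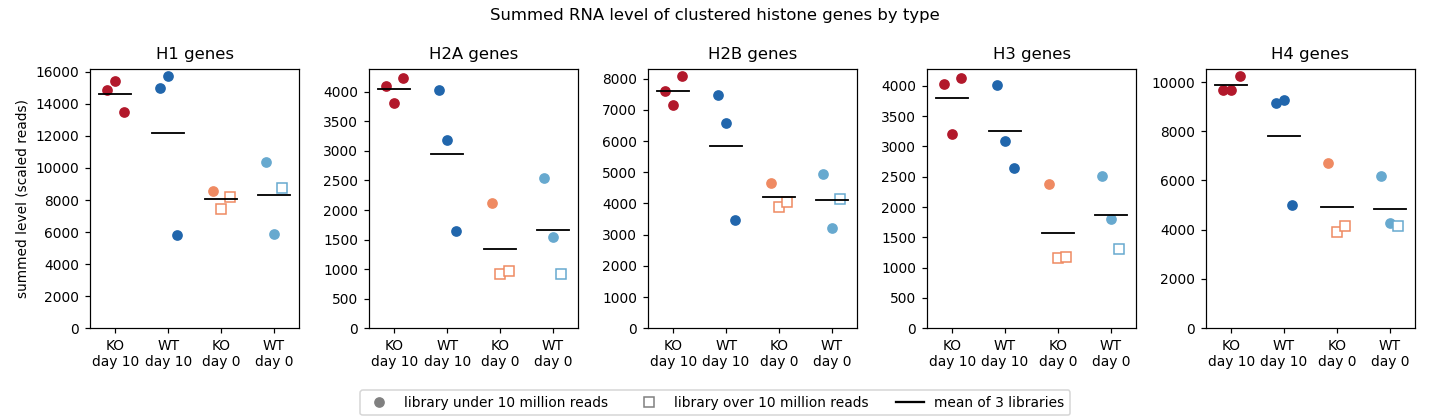
Summed scaled reads of the members by histone type (panels) in each library; groups run from KO day 10 to WT day 0 along the x axis, the y axis starts at 0, and open squares are the 3 deep libraries. In each panel the 3 KO day 10 libraries lie above the 6 of day 0, and WT day 10 replicate 3 is the low point of its group in every panel.

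By type, H1 genes summed to 14600 ± 978 scaled reads in KO and 12170 ± 5510 in WT at day 10, and to 8080 ± 566 in KO and 8334 ± 2288 in WT at day 0. H4 genes summed to 9865 ± 316 in KO and 7806 ± 2438 in WT at day 10, and to 4918 ± 1545 in KO and 4860 ± 1134 in WT at day 0. H2A genes were the lowest type at day 0, at 1338 ± 683 in KO and 1664 ± 817 in WT, and reached 4048 ± 216 in KO and 2955 ± 1207 in WT at day 10. The highest members by mean scaled reads over the 12 libraries were the H1 genes Hist1h1a (2806), Hist1h1c (2582), Hist1h1d (2208) and Hist1h1e (1791). Per kilobase of gene length, Hist1h1a (3771 scaled reads per kb), Hist2h2bb (3638), Hist1h1c (3566) and the H4 gene Hist1h4d (3516) led, among the 57 members of stated length up to 1 kb that were tested.

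The make-up of the histone reads differed between deep and shallow libraries. These also differ in Rn45s share, so depth here and below stands for both, which cannot be told apart. H2A genes made 4.75 to 5.31% of member reads in the 3 deep libraries and 8.42 to 10.5% in the 9 shallow ones. H1 genes made 43.1 to 45.5% in the deep libraries and 31.3 to 41.5% in the shallow ones, and H3 genes made 6.35 to 6.74% in the deep libraries and 8.17 to 14.3% in the shallow ones. The 3 shallow day 0 libraries, at 8.70 to 9.55% H2A, lay within the range of the shallow day 10 libraries, as did their H1 shares. The part of depth in each comparison with day 0 was not tested beyond the values given beside it.

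Histone genes of each type were higher after differentiation of KO cells. Between day 10 and day 0 in KO cells, 13 of the 63 tested members were called, all higher at day 10 (limma, Benjamini-Hochberg adjusted p under 0.05), against 8.89% of all 20624 tested genes called and 2.43% called higher. The median log2 difference of the members was 1.11, with 61 of 63 above 0, against a median of -0.68 over all genes. The 3 libraries of day 10 lay above the 3 of day 0 in 51 members (81.0%) and in 8.93% of all genes, while no member was lower without overlap (36.5% of all genes). At an unadjusted p under 0.05, 40 members were higher, against 5.81% of all genes. The called members were 2 H1, 5 H2A, 2 H2B, 3 H3 and 1 H4 gene, and 11 of them lie in the Hist1 cluster.

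Among linker genes, Hist1h1c, which encodes H1.2, had 4042, 3469 and 3328 scaled reads in KO at day 10, against 1725, 1110 and 1358 in KO at day 0. Its log2 difference was 1.39 ± 0.35 (SE, adjusted p = 0.0314, limma). Hist1h1d, which encodes H1.3, rose by 1.24 ± 0.33 (adjusted p = 0.0373, limma), with 2805, 3425 and 3142 scaled reads in KO at day 10, against 1541, 1183 and 1264 in KO at day 0. For both genes the groups did not overlap. Hist1h1e (H1.4) had a log2 difference of 0.94 ± 0.32 (adjusted p = 0.0747, limma) and also did not overlap. Hist1h1a, which encodes H1.1, had 3697, 4280 and 3182 scaled reads in KO at day 10, against 2715, 2645 and 2730 in KO at day 0. Its log2 difference was 0.45 ± 0.47 (adjusted p = 0.505, limma). Hist1h1b (H1.5) had 0.29 ± 0.43 and the testis gene Hist1h1t 0.04 ± 0.58 (adjusted p = 0.652 and 0.968, limma).

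H2A genes had a median of 1.76 over 14 tested, with 13 of the 14 not overlapping between days. That median was 0.86 with the shallow libraries alone and 1.01 with a term for depth. Hist1h2ab, of the Hist1 cluster, had 532, 419 and 510 scaled reads in KO at day 10, against 299, 59.6 and 54.0 in KO at day 0 (log2 difference 2.28 ± 0.63, adjusted p = 0.0412, limma). The highest of the day 0 values is the shallow library, and the 2 low ones are deep. Hist3h2a, an H2A gene outside the Hist1 cluster, had 948, 964 and 930 scaled reads in KO at day 10, against 330, 288 and 314 in KO at day 0 (1.61 ± 0.35, adjusted p = 0.0200, limma), so its day 0 libraries lay close together whatever their depth. Hist1h2an, Hist1h2ak and Hist1h2ai rose by 2.19, 1.86 and 1.58 (adjusted p = 0.0401, 0.0270 and 0.0468, limma).

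H2B genes had a median of 0.90 over 19 tested. Hist1h2bl rose to 365, 353 and 361 scaled reads in KO at day 10, against 146, 72.0 and 111 in KO at day 0 (log2 difference 1.76, adjusted p = 0.0278, limma), and Hist1h2bj rose by 1.30 (adjusted p = 0.0448, limma). Hist2h2bb, the H2B gene with the highest level, had 2590, 2527 and 2637 scaled reads in KO at day 10, against 1712, 1169 and 1237 in KO at day 0, but its difference of 0.93 was not called (adjusted p = 0.0779, limma). H3 genes had a median of 0.97 over 12 tested, and Hist1h3f, Hist1h3e and Hist1h3i rose by 1.87, 1.86 and 1.64 (adjusted p = 0.0276, 0.0295 and 0.0232, limma). Hist2h3c1 and Hist2h3c2, which share their values, were the 2 members below 0, at -1.55 with at most 6.23 scaled reads in any KO library.

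H4 genes had a median of 1.11 over 12 tested. Hist4h4 (chromosome 6, 136752514 to 136752952, minus strand, mm9), an H4 gene apart from all clusters, had 1531, 1596 and 2066 scaled reads in KO at day 10, against 725, 450 and 487 in KO at day 0. The lowest day 10 library lay above the highest of day 0, and the log2 difference was 1.66 ± 0.29 (adjusted p = 0.00674, limma). It was the member with the smallest adjusted p in this comparison, while each of the other 12 called members kept its call in 10 to 18 of 24 alternatives. Hist1h4d and Hist1h4h, H4 genes of the Hist1 cluster, had 0.88 and 1.2 (adjusted p = 0.0790 and 0.0609, limma).

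The count of 13 turned on single libraries and on depth. It was 0 without KO day 10 replicate 3, where 199 of 20571 genes were called. Leaving out any single one of KO day 10 replicates 1 and 2 and KO day 0 replicates 2 and 3 gave 1. In those fits 285 to 502 genes were called. The count was 30 without KO day 0 replicate 1 (2889 of 20341 genes) and 30 without WT day 10 replicate 3 (4496 of 20290 genes). On recovered reads edgeR called 8 members (7.16% of all genes) and DESeq2 called 33 (14.5% of all genes). With a term for depth in the fit 3 members were called (limma), against 2866 of 20624 genes. The member median was then 0.82, against -0.46 over all genes. With the 9 shallow libraries alone, KO day 0 is a single library and no count is given. There the member median was 0.73, against -0.44 over all genes.

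**Figure D2:**
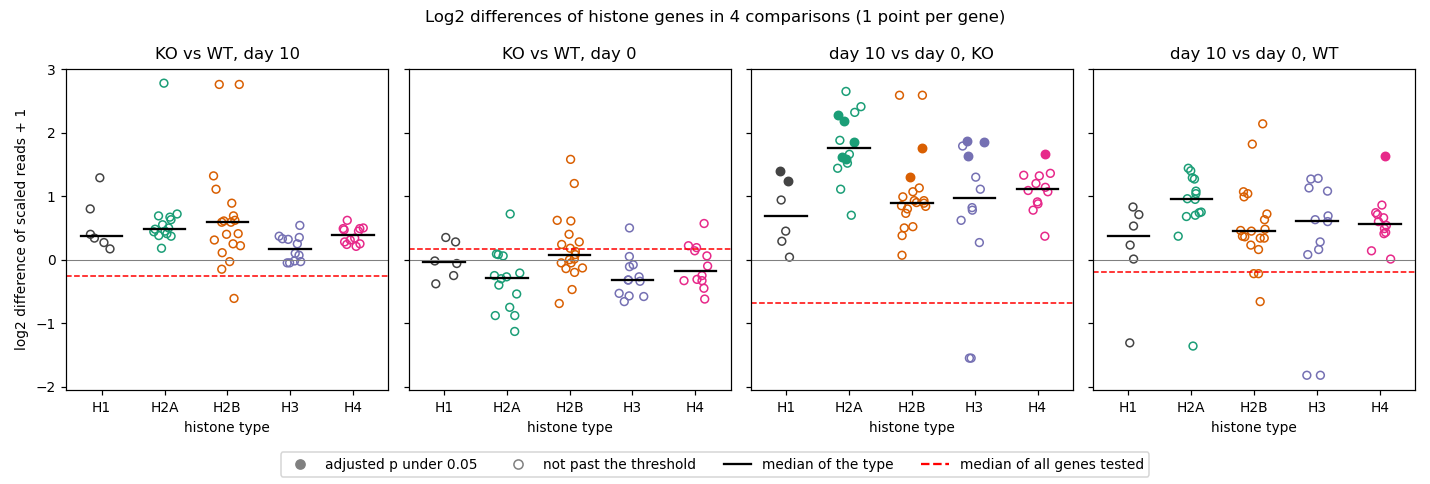
log2 differences (y axis) of the 63 tested members by histone type (x axis) in 4 comparisons (panels); each point is a gene, filled where called by limma, and the red dashed line is the median of all tested genes. In the KO panel of day 10 against day 0, 61 of 63 points lie above 0 while the line lies at -0.68.

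In WT cells the same comparison called 1 of 63 members, against 4.42% of all genes called and 2.02% called higher. That member was Hist4h4, with 1408, 1779 and 1187 scaled reads in WT at day 10, against 608, 418 and 394 in WT at day 0 (log2 difference 1.63 ± 0.29, adjusted p = 0.00538, limma). The groups did not overlap, WT day 10 replicate 3 included, and the call held in 24 of 24 alternatives. In KO cells its call held in 22 of 24, and was lost without KO day 10 replicate 3 (log2 difference 1.53). The other exception was the shallow libraries alone, where KO day 0 is a single library (log2 difference 1.24).

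Over the WT members the spread between libraries was wide. The median log2 difference over 63 members was 0.63, with 56 above 0, against -0.20 over all genes, and 13 members were higher at an unadjusted p under 0.05 (6.21% of all genes were). Groups did not overlap upward for 10 members (15.9%, against 6.63% of all genes). Hist1h1c had 4653, 4211 and 1667 scaled reads in WT at day 10, against 2020, 1896 and 1504 in WT at day 0 (log2 difference 0.83 ± 0.35, adjusted p = 0.236, limma). Its value in WT day 10 replicate 3 lay between the day 0 libraries, as did that of Hist3h2a, at 1053, 992 and 368 scaled reads in WT at day 10, against 431, 384 and 315 in WT at day 0 (0.96, adjusted p = 0.170, limma). On recovered reads edgeR called 1 member (7.04% of all genes) and DESeq2 called 7 (8.15%). Without WT day 10 replicate 3, 6 members were called (1051 of 20290 genes) and the member median was 0.90. Without WT day 0 replicate 1 the count was 3 (838 of 20503 genes), and without KO day 0 replicate 1 it was 2 (1389 of 20341 genes).

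Hist1h1t was the single member whose WT values at day 10 lay below those of day 0 without overlap, at 49.4, 32.9 and 11.5 scaled reads in WT at day 10, against 88.4, 71.0 and 49.8 in WT at day 0. Its log2 difference of -1.31 ± 0.58 was not called (adjusted p = 0.269, limma), and 11.8% of all genes lay lower without overlap.

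Whether the change over 10 days differed between the lines was tested directly, and no member was called (limma, 0 also at an unadjusted p under 0.05, 0 by edgeR and 0 by DESeq2; over all genes 0, 8.70% at an unadjusted p under 0.05, 0 by edgeR and 0.398% by DESeq2). The member median of the change in KO minus the change in WT was 0.54, with 55 of 63 above 0, and it was 0.25 without WT day 10 replicate 3. Hist4h4 had a difference of 0.03 between the lines. The call of 13 members in KO and 1 in WT is therefore not shown to be a difference between them.

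**Figure D3:**
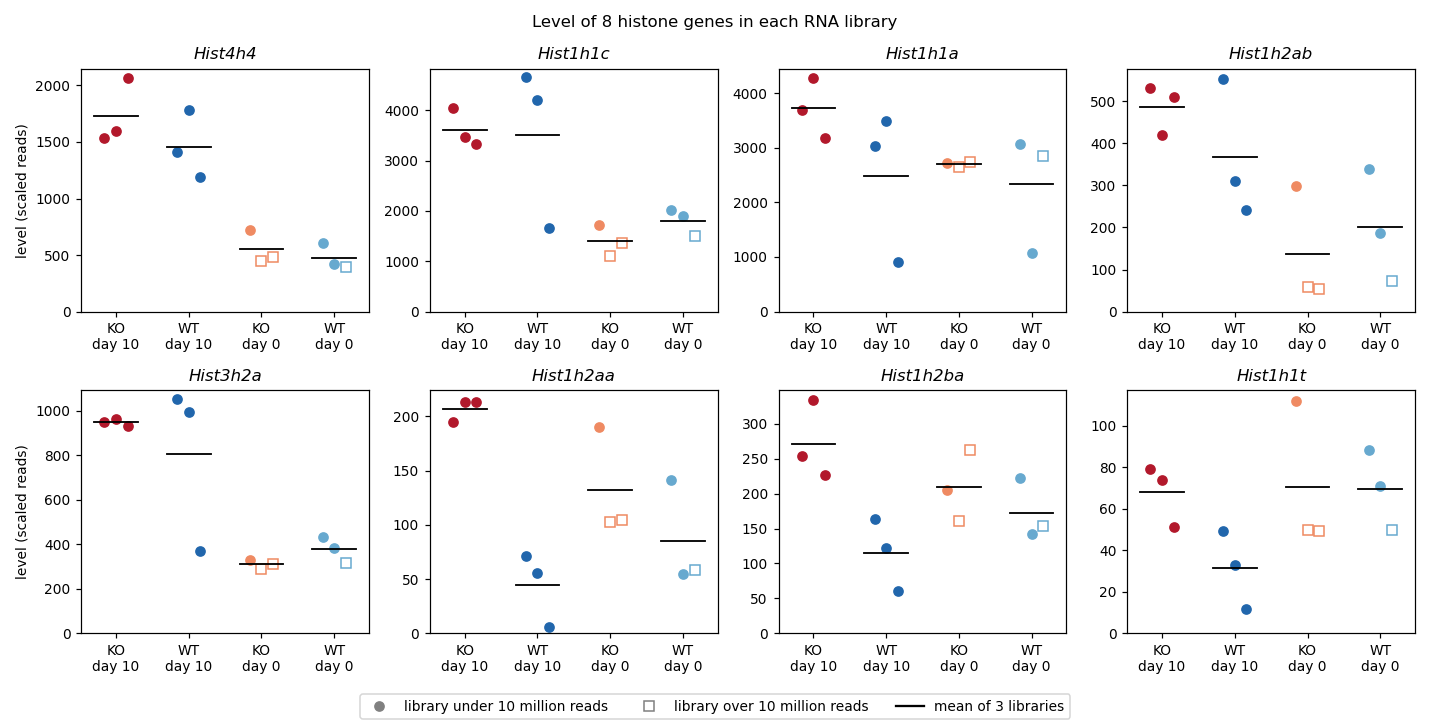
Scaled reads (y axis, own scale per panel, starting at 0) of 8 members in each of the 12 libraries, groups from KO day 10 at the left to WT day 0 at the right; each point is a library and open squares are deep libraries. Hist4h4 is separated by day in both lines, and Hist1h2aa has its 3 lowest day 10 values in WT.

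Between KO and WT at day 10 no member was called (limma, of 63; 0 of 20624 genes, 0.0%). At an unadjusted p under 0.05, 6 members were higher in KO and none lower, against 2.06% of all genes higher and 9.88% lower. DESeq2 on the recovered reads called 1 member, Hist1h2aa (2.43% of all genes), and edgeR called 0. The median log2 difference was 0.40 over the members, against -0.26 over all genes, and 14 members (22.2%) did not overlap upward, against 5.54% of all genes. This comparison shares its KO libraries with that of the days in KO. Medians were 0.37 for linker and 0.41 for core genes. Without WT day 10 replicate 3 the core median was 0.16 and the linker median turned to -0.06, with all genes at -0.08.

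The 3 testis members stood highest in KO against WT at day 10 among members above a mean of 20 scaled reads. Hist1h2aa (TH2A) had 194, 214 and 213 scaled reads in KO, against 71.0, 55.6 and 5.75 in WT. The groups did not overlap, and the last WT value is that of replicate 3, where 1 read is worth 2.87 scaled reads. The log2 difference was 2.78 ± 0.73 (unadjusted p = 0.00181, adjusted p = 0.210, limma). Under DESeq2 it was 2.28 (adjusted p = 0.0372; 0.0372 to 0.487 over the alternatives), and without WT day 10 replicate 3 it was 1.70 (adjusted p = 0.459, limma). Its neighbour Hist1h2ba (TH2B) had 254, 334 and 227 scaled reads in KO, against 164, 121 and 60.4 in WT, again without overlap (1.32 ± 0.40, unadjusted p = 0.00480, adjusted p = 0.227, limma), and 0.92 without WT day 10 replicate 3. Hist1h1t (H1t) had 79.3, 73.9 and 51.2 in KO, against 49.4, 32.9 and 11.5 in WT (1.29 ± 0.58, adjusted p = 0.409, limma), and 0.72 without that library.

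At day 0 the same 3 genes overlapped between the lines. Hist1h2aa had 190, 103 and 104 scaled reads in KO, against 141, 54.3 and 58.6 in WT, where the highest value of each line came from a shallow library. Hist1h2ba had 205, 160 and 262 in KO, against 223, 142 and 153 in WT, and Hist1h1t had 112, 49.8 and 49.5 in KO, against 88.4, 71.0 and 49.8 in WT. The test of the change over 10 days in KO minus that in WT gave 2.07 ± 1.03 for Hist1h2aa, 1.05 for Hist1h2ba and 1.35 for Hist1h1t (adjusted p = 0.584, 0.598 and 0.643, limma). Markers of naive pluripotency summed to 1938 to 2625 CPM in KO and 615 to 1338 in WT at day 10. At day 0 the sum was 5177 to 5306 CPM in KO and 4849 to 6445 in WT. Of these markers, 16 of 16 were above 0 in KO against WT at day 10 (median 1.11, none called). Over the 10 days in KO mean Hist1h2aa went from 132.2 to 207.0 scaled reads. Its KO day 0 value was 190 in the shallow library and 103 and 104 in the deep ones. The KO day 10 libraries, all shallow, were at 194, 214 and 213. Mean Hist1h2ba went from 209.3 to 271.5 and Hist1h1t from 70.45 to 68.17 in KO. The part of the naive pluripotency markers, or of depth, in the values of the testis members was not tested.

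Of the other members, Hist1h2bq and Hist1h2br, which share their values, had a difference of 2.76 on at most 13.7 scaled reads. The members lowest in KO were Hist3h2ba (-0.61), Hist2h2be (-0.15) and Hist1h3h (-0.03), and Hist3h2ba had 43.6, 38.3 and 27.0 scaled reads in KO, against 124, 51.5 and 25.9 in WT, with overlap (adjusted p = 0.734, limma). Among the linker genes, Hist1h1a had 3697, 4280 and 3182 in KO, against 3029, 3486 and 911 in WT (0.80 ± 0.47, adjusted p = 0.505, limma). KO at day 10 was the group with the highest mean for 55 of the 63 members, WT at day 10 for 4, and each day 0 group for 2. The WT day 10 means include replicate 3, the lowest of the 6 day 10 libraries for 50 of the 63 members. Group order was not counted over all genes.

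Between KO and WT at day 0 no member was called (limma, 0.0% of all genes), none reached an unadjusted p under 0.05 (3.82% of all genes), and edgeR and DESeq2 called none (0.0% and 0.0708% of all genes). The median was -0.11 over the members, against 0.17 over all genes, and 24 of 63 lay above 0. No member was higher without overlap (5.5% of all genes were), and Hist1h3h, an H3 gene, was lower without overlap (4.98% of all genes), at 46.7, 38.8 and 35.0 scaled reads in KO, against 67.2, 66.8 and 47.5 in WT. The linker genes Hist1h1a, Hist1h1b, Hist1h1c, Hist1h1d, Hist1h1e and Hist1h1t ranged from -0.38 to 0.35.

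Depth is shared unevenly at day 0, with 2 deep libraries in KO and 1 in WT. Within the shallow libraries (1 KO, 2 WT) the member median of KO minus WT was 0.21, with 43 above 0, and within the deep ones (2 KO, 1 WT) it was -0.13, with 23 above 0. The direction thus differed between the depth classes. A fit of the 9 shallow libraries alone leaves 1 KO library at day 0, so no count is given. Among members above a mean of 20 scaled reads, the highest differences were those of Hist3h2bb-ps (1.58 ± 1.09), Hist1h2bn (1.2 ± 0.62) and Hist1h2aa (0.72 ± 0.73), and the lowest those of Hist1h2ad (-1.13 ± 0.86), Hist1h2ah and Hist1h2ae (both -0.88). Hist1h2ad had 34.3, 4.23 and 5.36 scaled reads in KO, against 35.4, 37.6 and 7.69 in WT, with each of the deep libraries below 8. Hist1h2bn, the other way round, had 56.0, 121 and 136 in KO, against 17.7, 33.4 and 122 in WT, with the deep libraries highest.

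Genes that encode other histones, or that make or handle histones, were not called over the 10 days in either line (limma), against 8.89% of all genes in KO and 4.42% in WT, whose medians were -0.68 in KO and -0.20 in WT. None of the 11 replication-independent histone genes was called in any of the 5 comparisons, and their median of day 10 against day 0 was 0.12 in KO and -0.15 in WT, against member medians of 1.11 in KO and 0.63 in WT. H1f0, the linker histone of non-dividing cells, had 699 ± 134 scaled reads in KO at day 10, against 396 ± 238 in KO at day 0 (log2 difference 1.08, adjusted p = 0.192, limma). Genes for histone transcription and mRNA processing had medians of -0.54 in KO and -0.37 in WT, with none of 13 called. Slbp, whose product binds the histone stem-loop, had -0.43 in KO and -0.35 in WT (adjusted p = 0.501 and 0.761, limma). Histone chaperones had medians of -0.28 in KO and -0.46 in WT, with none of 12 called.

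S phase and proliferation genes, 20 in all, had medians of -0.41 in KO and -0.69 in WT between day 10 and day 0, against -0.68 in KO and -0.20 in WT over all genes. In KO 1 of them fell, Pola1 (DNA polymerase alpha; log2 difference -1.34, adjusted p = 0.0257, limma). In WT 2 fell, Ccne1 (cyclin E1; -1.49, adjusted p = 0.0316) and Pola1 (-1.2, adjusted p = 0.0460, limma). Over all genes 6.46% fell in KO and 2.4% in WT, and at an unadjusted p under 0.05 2 of the 20 were lower in KO and 8 in WT, against 26.6% and 10.6% of all genes. Their summed level was 4366 to 4983 CPM in KO and 2638 to 4603 in WT at day 10, and 4148 to 6610 in KO and 4862 to 6621 in WT at day 0. Of the fibroblast markers, which could mark feeder cells or differentiated cells, the summed level was 3285 to 4670 CPM in KO and 1953 to 3819 in WT at day 10, and 1514 to 2190 in KO and 1378 to 3932 in WT at day 0. Y-linked genes, which a female line lacks, summed to 0.379 to 3.05 CPM in KO and 0 in each WT library at day 10, and to 0.938 to 11.9 in KO and 0.886 to 28.3 in WT at day 0. The part of such cells in the members' levels was not tested.

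Reads that carry a base difference between the mus and cas genomes were counted by allele for each member. The members had 48390 mus and 41612 cas reads over the 12 libraries, 67 of the 68 had any and 40 had at least 200. How the authors assigned reads to alleles is not given in the sources used here. No member changed its mus share between groups (edgeR, adjusted p under 0.05): of 32 tested in KO against WT at day 10, 29 at day 0, 33 between days in KO and 28 between days in WT, 0 were called in each, against 0.0913%, 0.0%, 1.36% and 0.0641% of all genes. Unadjusted p was under 0.05 for 0, 2, 4 and 1 of them, against 356 of 7666, 241 of 8653, 860 of 7791 and 523 of 7802 genes. Without KO day 0 replicate 1 the test called 3 of 38 members between days in KO, against 429 of 8091 genes. The smallest adjusted p was 0.195, for Hist1h3a between days in KO, where pooled mus shares were 14.5% in KO at day 10 and 33.1% in KO at day 0, and 14.3% in WT at day 10 and 30.1% in WT at day 0. Its share moved with depth: the 3 deep libraries, all of day 0, were at 35.2% and 35.1% in KO and 32.6% in WT, whereas the shallow day 0 libraries were at 17.0% in KO and 17.2% and 22.7% in WT, and the day 10 libraries, all shallow, at 11.8 to 20% in KO and 11.7 to 21.3% in WT. The part of depth in these shares was not tested.

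On chromosome 13, where other genes were read from both alleles, the members' mus shares ran from near 0 to near 100%. The 35 members with at least 200 allelic reads had a median of 53.3% mus (SD over genes 25.4), from 0.976% to 99.8%, and 18 of them (51.4%) lay between 30 and 70%. The 429 other genes of chromosome 13 had a median of 50.7% (SD over genes 9.20) and 95.1% lay in that range. Hist1h1a, the best covered member, was at 51.0% (Wilson 95% interval 50.3 to 51.6, over 21357 reads), and Hist1h1c and Hist1h1e were at 40% and 41.4%. Hist1h1d, also an H1 gene of the cluster, was at 0.976% (2 mus and 203 cas reads). At the other end lay Hist1h3f (99.8%), Hist1h2ah (99.7%) and Hist1h4d (99.3%, 1768 mus and 12 cas reads). Intervals cover counting error only. Pooling gives the deep day 0 libraries more weight. The median over single libraries was 51.7% for Hist1h1a, near its pooled share. It was 18.6% for Hist1h3a (pooled 26.5%), 19.1% for Hist1h2bp (pooled 31.0%) and 70.3% for Hist1h2be (pooled 60.6%). Members have close copies and are short, and the part of read placement in these shares was not tested.

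**Figure D4:**
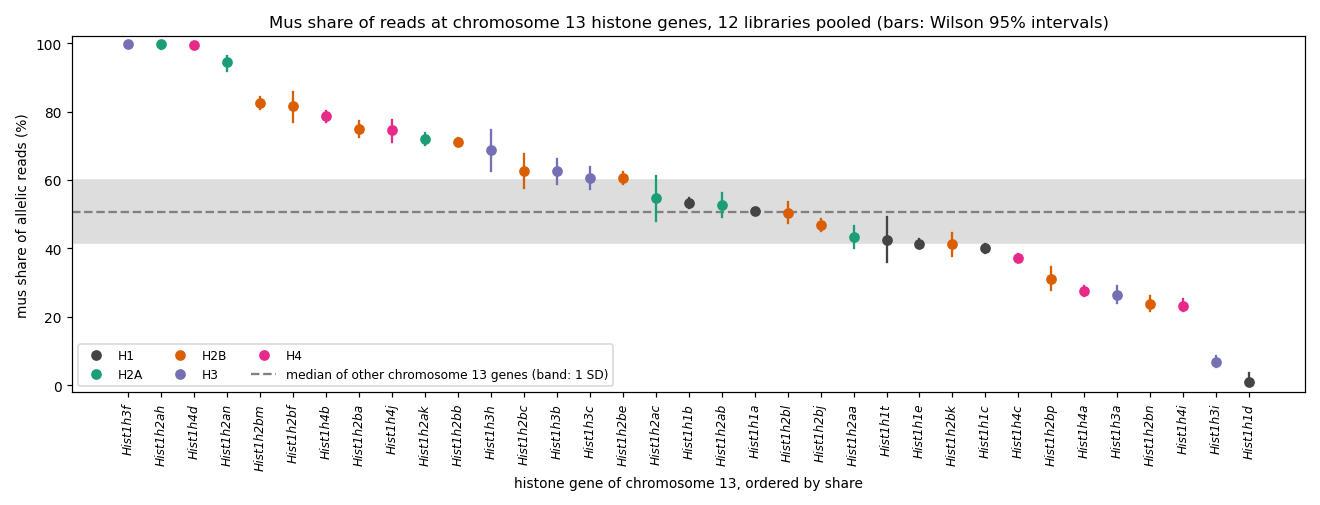
Mus share in percent (y axis) of the 35 chromosome 13 members with at least 200 allelic reads, pooled over the 12 libraries, with Wilson 95% intervals as bars; the band is the median and SD of the other chromosome 13 genes. Members reach from 0.976% to 99.8%, while the band is centred on 50.7%.

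Among the testis members, Hist1h2aa was at 43.3% mus (383 mus and 501 cas reads), Hist1h1t at 42.5% and Hist1h2ba at 74.9%. Hist1h2ba was at 54.8% in KO day 0 replicate 3 (266 mus and 219 cas reads) and at 62.1 to 95% in the other 11 libraries. On the other chromosomes that hold members, other genes with at least 200 allelic reads leaned to mus to differing extents. On chromosome 3 91.1% of them were over 90% mus and 1.63% lay between 30 and 70%, on chromosome 6 74.7% and 15.6%, and on chromosome 11 57.9% and 36.5%. Hist4h4 on chromosome 6 was at 99.8% (2139 mus and 5 cas reads), and Hist2h3b on chromosome 3 had 655 mus and 0 cas reads. Hist3h2a on chromosome 11 had 1832 mus reads and 1 cas read, whereas the other members of its cluster were at 48.8% (Hist3h2ba, 83 mus and 87 cas reads) and 66.7% (Hist3h2bb-ps, 136 mus and 68 cas reads). Hist2h2ac on chromosome 3 was at 41.8% (239 mus and 333 cas reads) where 1.63% of the other chromosome 3 genes lay between 30 and 70%.

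Most members had a listed H3K9ac peak near the start in each sample, weak peaks included. The authors' -log10 q was 0.08679 at Hist1h2bm in KO at day 10 and 0.07173 at Hist1h4k in WT at day 0. It reached 7.792 at Hist4h4 in KO at day 10. With a peak of the authors' lists within 1 kb of the start counted as present, 63 of 68 members had a peak in KO and 61 in WT at day 10, and 54 in KO and 55 in WT at day 0. Shares were 92.65% in KO and 89.71% in WT at day 10, and 79.41% in KO and 80.88% in WT at day 0, against, in the same order, 52.35%, 51.02%, 40.13% and 49.95% of all 23882 gene starts. The lists differ in length (51501 peaks in KO and 37310 in WT at day 10, 37704 in KO and 63050 in WT at day 0), and with 1 sample per group no difference between groups can be tested. In all, 51 members had a peak in the 4 samples and 5 had none: Hist1h2aa, Hist1h2ba, Hist3h2ba, Hist1h2bq and Hist1h2br. Thus the testis pair Hist1h2aa and Hist1h2ba had RNA in each of the 12 libraries and no listed peak in any sample. The testis linker gene Hist1h1t had a peak in KO at day 10 alone, with an authors' fold enrichment of 2.91 and a -log10 q of 0.7846. That peak also covers the start window of Hist1h4c, an H4 gene that had a listed peak in WT at day 10 and KO at day 0 as well.

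Peaks over the members were wider at the median than those over all starts, and often shared. Of the members with a peak, 50 of 63 in KO and 49 of 61 in WT at day 10, and 42 of 54 in KO and 40 of 55 in WT at day 0, lay in a peak that covered another member's start. Median peak width was 2.77 kb in KO and 3.66 kb in WT at day 10, and 2.30 kb in KO and 2.41 kb in WT at day 0, against, in the same order, 1.82, 1.85, 1.41 and 1.61 kb over all starts with a peak. Median fold enrichment of the members, the authors' own value per peak, exceeded that of 37.15% of the starts with a peak in KO and 37.85% in WT at day 10, and of 48.26% in KO and 72.02% in WT at day 0. Hist4h4 had folds of 5.11 in KO and 5.26 in WT at day 10, where the member medians were 3.32 in KO and 3.47 in WT, and of 3.96 in KO and 4.22 in WT at day 0, where they were 3.07 in KO and 3.23 in WT. Folds of different lists cannot be compared. Requiring a -log10 q of at least 5 left 4 members in KO and 4 in WT at day 10, and 0 in either line at day 0. Few peaks reach it in any list: 4.526% in KO and 6.031% in WT at day 10, and 2.061% in KO and 0.7898% in WT at day 0, and 10.69%, 9.677%, 1.608% and 0.2764% of all starts, in the same order, have such a peak.

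**Figure D5:**
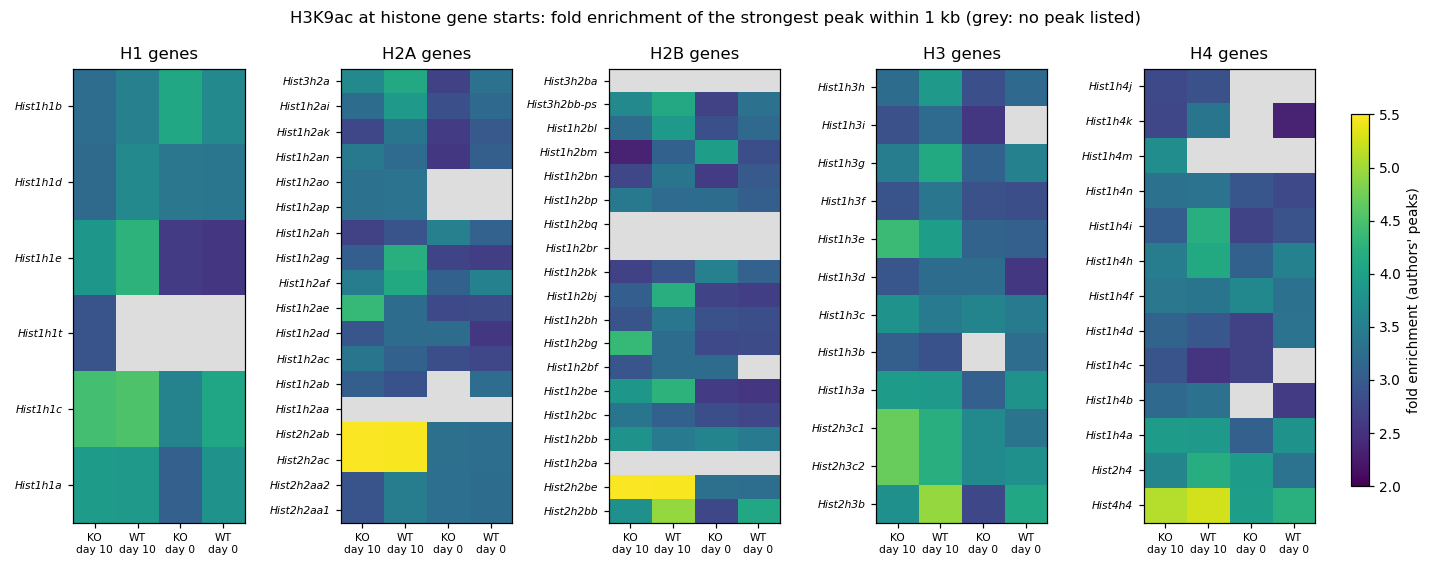
Fold enrichment (colour, the authors' value) of the H3K9ac peak within 1 kb of the start of each member (rows) in the KO day 10, WT day 10, KO day 0 and WT day 0 samples (columns); grey means that no peak is listed. Most rows are coloured in each column, and Hist1h2aa and Hist1h2ba are grey throughout.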

How the data were processed

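RNA of 12 libraries and H3K9ac of 4 ChIP samples were used. H3K9me2 samples were not used here, and 2 inputs whose labels name different days were left unassigned. Per the submitters' processing notes the tools were TopHat and HOMER for RNA and Novoalign and MACS2 for ChIP, on mm9. Versions, strand, peak control, read placement and allele assignment are not given in the sources used here. The authors' gene table holds a signal, reads brought to the same total in each library, and the stated length equals the genomic span in 99.48% of genes. Whole reads were recovered from this signal (100% of values whole within 0.006). The authors' allele table holds counts. The deposited peak lists give a fold enrichment and a -log10 q per peak, called in each sample.

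The main model was limma 3.58.1 (trend, robust; R 4.3.3) on log2 of the scaled value plus 1, which understates changes of low genes. It took the 20624 genes above 1 scaled read in at least 3 libraries and fitted all 12 libraries together, with p adjusted by Benjamini-Hochberg over all genes and a threshold of 0.05. On recovered reads, edgeR 4.0.16 (TMM, quasi-likelihood) and DESeq2 1.42.0 were alternatives. Allele counts went into edgeR with terms for library and for group by allele, at 10 or more allelic reads per library. Motifs, peaks within 1 kb of a start and figures were made with Python 3.11.15 (pandas 2.3.3, numpy 2.4.6, scipy 1.17.1, matplotlib 3.10.9). The limma and edgeR models were tested on simulated data. A read is worth 0.28 to 4.18 scaled reads, which sets the precision of low members. Errors are SD between libraries or moderated SE.

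Members and gene lists were chosen with earlier results of these data known. Named were the linker members, the 3 highest members of each core type, up to 8 called members per comparison, the 3 highest and 3 lowest between KO and WT above a mean of 20 scaled reads, members outside the Hist1 cluster, Ehmt2 and called list genes; not each is printed. Replicate numbers were checked for pairing on log2 deviations from the group mean. Same-numbered libraries correlated at -0.578 to 0.579, with 5 of 18 pairs over 0.1. Libraries also differ in depth, so this check cannot exclude pairing, and the main model used none. Alternatives were other scalings, filters, pseudocounts, models and single libraries left out, and, chosen after seeing the data, the shallow libraries alone.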

Additional observations from a re-analysis of the deposited data

How the results depend on the processing

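Over all values recomputed, 2258 stayed on their side of the threshold with their direction, 111 lost a call or fell below it, 45 gained one, 88 moved and none of those past a threshold changed sign. The call count of day 10 against day 0 in KO (13, with 1834 of 20624 genes called) was the least stable. It was 22 with RLE scaling (1485 of 20586 genes), 8 with edgeR (1065 of 14884) and 33 with DESeq2 (3276 of 22589). With no filter on low values it was 3, and a smaller share of all genes was called than in the main fit. Counts were 32 with only the groups compared (4165 of 19374 genes) and 3 with a depth term (2866 of 20624). Without the 2 libraries with background reads the count was 38 (5409 of 19942 genes). With single libraries left out it was 0 to 30 (199 to 4496 genes). The shallow libraries alone leave 1 KO library at day 0, so no count is given. For the same comparison in WT (1) the count was 7 with DESeq2 (1840 of 22589 genes) and 16 without the 2 libraries with background reads (2141 of 19942). It was 1 to 6 with single libraries left out (466 to 1389 genes). DESeq2 called 1 member between KO and WT at day 10 (548 of 22589 genes). The replicate block, whose numbers were not shown to pair the libraries, gave 20 calls in KO (1612 of 20624 genes) and changed no other member count. RLE scaling moved the median of all genes in KO between days to -0.41, and that of the members to 1.40. The linker median of KO against WT at day 10 (0.37) was -0.06 without WT day 10 replicate 3, and the member median of KO against WT at day 0 (-0.11) was 0.21 with the shallow libraries alone, 0.04 with a depth term, 0.10 without WT day 0 replicate 1 and 0.02 without KO day 0 replicate 2. The allele test between days in KO called 0 to 3 members with single libraries left out (3 of 38 without KO day 0 replicate 1, against 429 of 8091 genes). A -log10 q of at least 5 left 4 members with a peak in KO and 4 in WT at day 10, and 0 in KO and 0 in WT at day 0, and few peaks of any list reach it (0.7898 to 6.031%). No fit of the change over 10 days with only the groups compared was run, since it uses all 4 groups. The cause of these shifts was not tested. Depth limits low members: a read is worth up to 4.18 scaled reads in the shallowest library.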
